A study of Homo sapiens with 6 samples.

Results

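The 10 genes described here encode core parts of the Notch pathway in endothelium: the receptors NOTCH1, NOTCH2, NOTCH3 and NOTCH4, the ligands JAG1, JAG2 and DLL4, and the transcriptional repressors HES1, HEY1 and HEY2. They were chosen by name. Probe sets were taken where the platform annotation gave a single gene symbol and that symbol was one of the 10, which gave 33 of the 49395 probe sets on the array and 10 of the 18132 genes that such probe sets represent. The recipient cells were HMEC-1, an immortalised line of human dermal microvascular endothelial cells, grown without serum. EPC-Exos are known from the study to be exosomes of endothelial progenitor cells, and 3 samples had them at 1e+11 particles per mL for 24 hours. The 3 control samples had the same volume of PBS for that time. All samples came from this 1 line, and the labels do not say whether replicates were separate cultures, so the spread behind each p-value is that of these arrays and could be technical.

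Notch signalling passes between touching cells. A ligand of the Jagged or Delta-like family on a cell binds a Notch receptor on its neighbour, and the receptor is then cut by an ADAM metalloprotease and by gamma-secretase, the membrane protease complex. The freed intracellular domain enters the nucleus, joins the DNA-binding protein RBPJ and a Mastermind coactivator, and turns on repressor genes of the HES and HEY families. In sprouting vessels this exchange sets which endothelial cells lead as tip cells and which follow as stalk cells, and later it shapes arterial identity. The pathway is controlled mostly by cleavage and protein turnover, and the arrays measured RNA at a single time, so they give the level of the transcripts and not the activity of the receptors.

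The HES and HEY promoters are among the places where Notch signalling reaches DNA, and 3 promoter stretches are shown. The first is that of HES1, the target gene that was called lower. The others are those of HEY2, a target gene at background here, and of NOTCH1, the member with the largest called change. Each is the 250 bases before the start site, 5′ to 3′ on the gene's strand, in RefSeq's GRCh38.p14. HES1 is at chr3:194135898-194136147 on the plus strand, HEY2 at chr6:125749382-125749631 on the plus strand and NOTCH1 at chr9:136546049-136546298 on the minus strand. Capitals mark the core letters of an RBPJ site, TGGGAA, on either strand.
HES1: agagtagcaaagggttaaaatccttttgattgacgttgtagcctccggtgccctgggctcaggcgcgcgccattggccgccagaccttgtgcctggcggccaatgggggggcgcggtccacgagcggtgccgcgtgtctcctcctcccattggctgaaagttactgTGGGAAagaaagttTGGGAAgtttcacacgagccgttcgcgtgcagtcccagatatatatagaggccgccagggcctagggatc
HEY2: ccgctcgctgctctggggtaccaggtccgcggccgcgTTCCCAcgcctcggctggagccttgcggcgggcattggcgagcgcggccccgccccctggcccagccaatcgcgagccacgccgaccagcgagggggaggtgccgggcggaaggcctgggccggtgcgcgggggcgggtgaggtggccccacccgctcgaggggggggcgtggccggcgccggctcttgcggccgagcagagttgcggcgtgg
NOTCH1: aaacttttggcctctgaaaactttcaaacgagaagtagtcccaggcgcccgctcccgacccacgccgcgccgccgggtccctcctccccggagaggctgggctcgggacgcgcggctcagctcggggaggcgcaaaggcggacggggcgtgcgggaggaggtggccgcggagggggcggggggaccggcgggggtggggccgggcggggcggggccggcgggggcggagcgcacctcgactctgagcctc
The HES1 stretch held 2 matches in the same orientation, starting 84 and 70 bases before the start site and 8 bases apart. HEY2 held 1 match, on the opposite strand, starting 213 bases before the start site, and the NOTCH1 stretch held 0. Promoter stretches of 9 of the 10 members were searched, and that of the target gene HEY1 was not. Of these 9, 2 held a match, HES1 and HEY2, while 20.9% of 34943 promoter stretches of this length in the RefSeq table did. The letters CACNAG, the N-box that HES1 protein binds, occurred in 3 of the 9 members, at 3 places in the HES1 stretch and at 1 each in those of NOTCH3 and NOTCH4, and in 32.1% of all stretches. These matches are descriptions of letters, and binding was not measured.

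The arrays gave a log2 signal for each probe set, and their medians lay between 6.25 and 6.34. Pearson correlations over the human probe sets were 0.997 within a group and 0.988 to 0.989 between the groups. The 3′ to 5′ log2 differences of the ACTB and GAPDH control probe sets, a readout of RNA integrity, differed by 0.011 and 0.0092 between the groups. Of 18 endothelial marker genes 12 lay above the highest Tag control, a probe set that matches no human transcript and whose mean log2 signal was 4.97. CDH5, TEK, FLT1, SOX18, CLDN5 and EMCN did not. Of the 10 endothelial markers tested 5 rose (ENG, FLI1, TIE1, SOX7 and ESAM) and 0 fell, and the summed linear signal of all 18 went from 2580 to 2917 on PBS arrays to 3537 to 3584 on EPC-Exos arrays. Markers of other cell types also moved with the treatment. Of 7 tested mural cell and fibroblast markers 4 fell and 1 rose, and the summed linear signal of all 11 went from 3262 to 3675 on PBS arrays to 2541 to 2821 on EPC-Exos arrays. Of 7 epithelial markers 5 lay above 4.97, and of the 4 tested 3 fell (KRT18, KRT8 and CLDN4) and 0 rose; their summed signal went from 6924 to 7616 with PBS to 4730 to 4927 with EPC-Exos, and CDH1 lay below 4.97. Of 8 leukocyte markers on the array 3 lay above 4.97, and the only one tested, CD68, rose from 7.73 to 8.47 in mean log2 signal. Their summed signal went from 373 to 382 with PBS to 506 to 555 with EPC-Exos, and PTPRC and CD14 lay below 4.97. A sum of linear signals weighs the brightest genes most, so these sums are not shifts of whole lists. The brightest leukocyte marker was CD68. In mean log2 signal, KRT18 led the epithelial list (12.53 with PBS, 11.82 with EPC-Exos) and COL1A1 the mural and fibroblast list (11.07 and 10.40). ROBO4 (9.98 and 10.09) and ENG (9.16 and 9.96) led the endothelial list. In bulk RNA, fewer cells of a type and less RNA per cell cannot be told apart, and the part of these markers in the results below was not tested.

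Across the Notch genes the differences were small. Of the 10 members 7 passed the signal filter, a mean log2 signal of at least 5.45, and were tested. NOTCH1, JAG1 and HES1 were called lower after EPC-Exos and 0 were called higher. These 3 of 7 (42.9%) compare with 49.1% of the 11715 genes tested that were called in either direction, 27.3% lower and 21.7% higher. The median change of the 7 was -0.077 on the log2 scale, beside -0.011 over all genes tested, and their median absolute change was 0.17, beside 0.18. None of the 10 reached the 1.5-fold threshold given in the study's design, which 9.89% of tested genes passed together with an unadjusted p under 0.05. The groups did not overlap in 3 of the 7, against 55.7% of all genes tested. The share of the Notch genes called was thus near the background of this comparison.

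**Figure D1:**
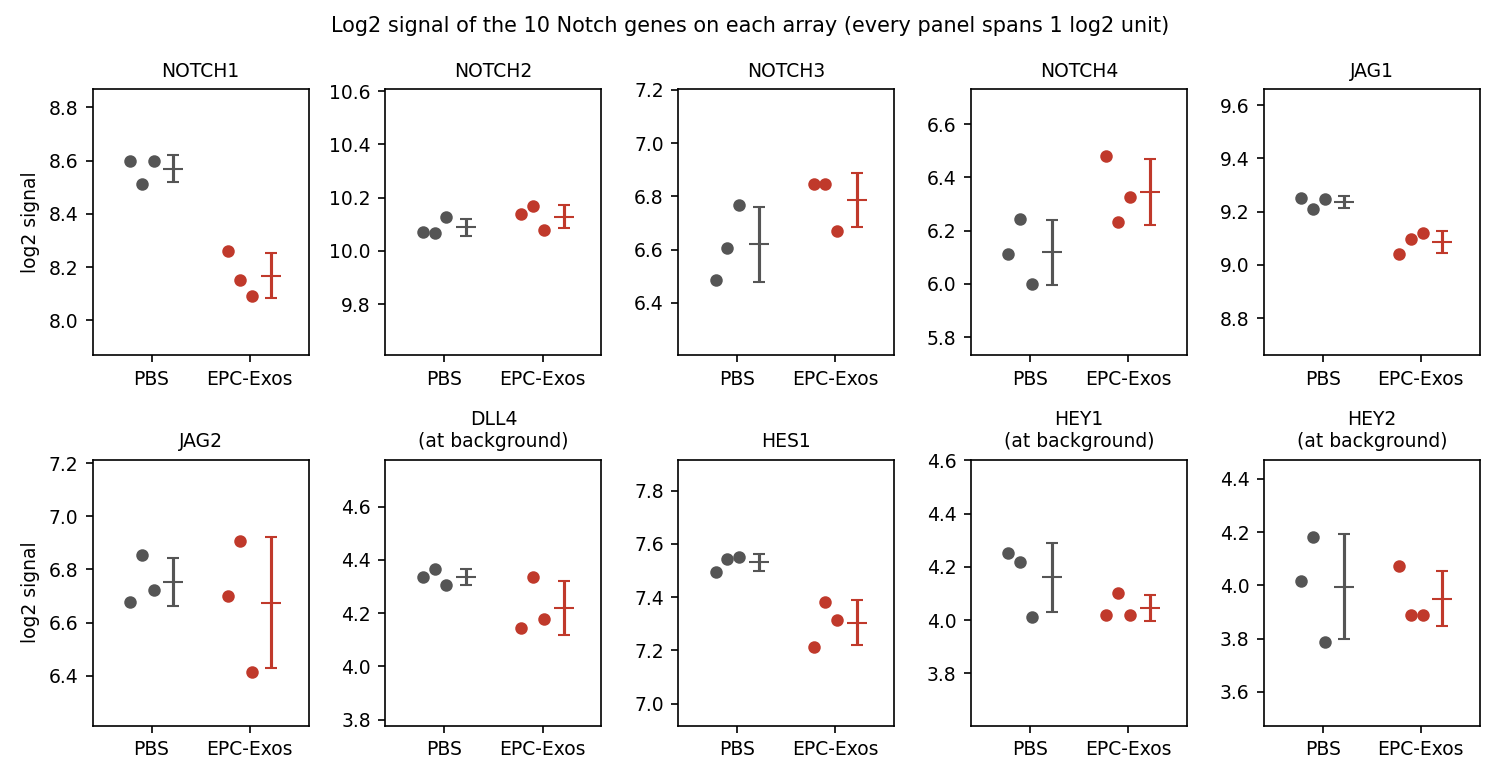
Log2 signal (vertical axis, 1 log2 unit in every panel) of each of the 10 Notch genes on the 3 PBS and 3 EPC-Exos arrays (horizontal axis), a point per array, with the mean and SD beside the points. The EPC-Exos points lie below all PBS points for NOTCH1, JAG1 and HES1, and the points of the groups overlap for the other 7 genes.

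Among the receptors NOTCH1 was called lower, by its brightest probe set and not by its others. NOTCH1 is the main receptor of endothelial stalk cells and of arterial endothelium. Its log2 signal was 8.60, 8.51 and 8.60 on the PBS arrays and 8.26, 8.15 and 8.09 on the EPC-Exos arrays. All 3 EPC-Exos arrays lay below all PBS arrays, and the gap between the groups was wider than the spread within either. The mean went from 8.57 ± 0.051 to 8.17 ± 0.086 (SD, n = 3), a change of -0.40 ± 0.072 (SE) or 1.32-fold lower, with an adjusted p of 0.000185 in limma. A larger absolute change was seen in 20.2% of the genes tested. The call held with each of the 6 arrays left out in turn, with values between -0.45 and -0.36. It rested on the brightest of 3 NOTCH1 probe sets. The other probe set above the filter had 6.32, 6.41 and 6.37 with PBS and 6.16, 6.38 and 6.44 with EPC-Exos, a change of -0.043 ± 0.11 whose groups overlap, and the dimmest changed by 0.068 ± 0.12. When the signals of all 3 were averaged, the change was -0.13 and not called (adjusted p = 0.152).

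The log2 signal of NOTCH2, a widely expressed receptor, was 10.07, 10.07 and 10.13 with PBS and 10.14, 10.17 and 10.08 with EPC-Exos. The groups overlapped, and the change of 0.040 ± 0.052 was not called (adjusted p = 0.561), with a 95% interval from -0.071 to 0.15 on the log2 scale. All 5 of its probe sets had changes above 0, between 0.040 and 0.15, and 0 of them were called, in the fit over all probe sets, where 28.4% of 49293 were called.

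NOTCH3 is best known as the receptor of mural cells, which wrap small vessels. Its brighter probe set, which represents the gene, had 6.49, 6.60 and 6.77 with PBS and 6.85, 6.85 and 6.67 with EPC-Exos. The groups overlapped, and the change of 0.17 ± 0.098 was not called (adjusted p = 0.176). The other NOTCH3 probe set went the opposite way, from 4.84, 4.81 and 4.99 with PBS to 4.49, 4.56 and 4.27 with EPC-Exos. Here all EPC-Exos arrays lay below all PBS arrays, and the change of -0.44 ± 0.12 was called in the fit over all probe sets (adjusted p = 0.00916). Both of its group means, 4.88 and 4.44, lay below the highest Tag control, so its signal could not be told from background. With both probe sets averaged the NOTCH3 change was -0.14 and not called, so no direction can be given for this gene.

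NOTCH4 is a receptor found mainly in endothelium. Its log2 signal was 6.11, 6.24 and 6.00 with PBS and 6.48, 6.23 and 6.33 with EPC-Exos. The lowest EPC-Exos array fell just inside the PBS range, and the change of 0.23 ± 0.10 was not called (adjusted p = 0.0821). Without PBS replicate 2 the gene passed, at 0.29 (adjusted p = 0.0494). Of its 4 probe sets 3 had changes above 0, up to 0.27, the other changed by -0.010, and 0 were called.

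**Figure D2:**
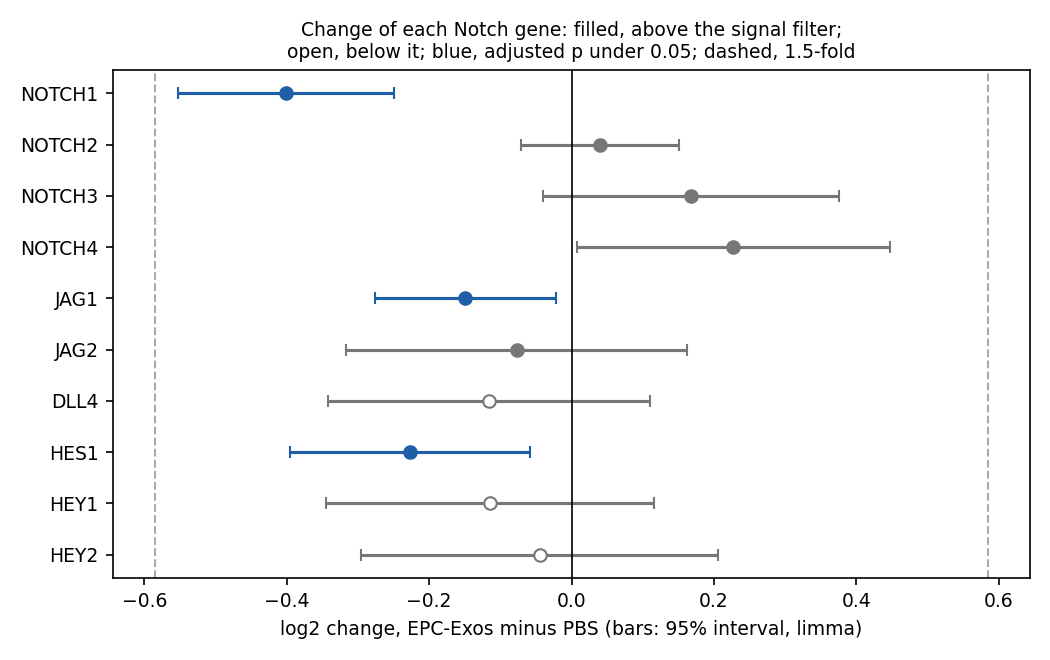
Change in log2 signal from PBS to EPC-Exos (horizontal axis) for each Notch gene (rows), with limma's 95% interval as a bar; filled points passed the signal filter, open points did not and come from the fit without it, and blue marks an adjusted p under 0.05. NOTCH1 lies farthest from 0, at -0.40 with an interval from -0.55 to -0.25, and every interval stays inside the dashed lines of a 1.5-fold change.

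Among the ligands JAG1 was called slightly lower, with probe sets that differed in sign, and the others were not called. JAG1 encodes Jagged1, which competes with DLL4 for Notch receptors in sprouting vessels. Its log2 signal was 9.25, 9.21 and 9.25 with PBS and 9.04, 9.10 and 9.12 with EPC-Exos. The groups were narrow and did not overlap, and the mean went from 9.24 ± 0.023 to 9.09 ± 0.041 (SD, n = 3). The change was -0.15 ± 0.060, or 1.11-fold lower, with an adjusted p of 0.0489 in limma, at the edge of the threshold. The call was lost whichever of the 6 arrays was left out (adjusted p between 0.0594 and 0.173), with the arrays centred on their medians (adjusted p = 0.0677) and with no filter on low signal (adjusted p = 0.0665). Of the 6 JAG1 probe sets 3 had changes above 0 and 3 below, from -0.29 to 0.24, and 0 were called in the fit over all probe sets. The probe set that represents the gene is of a kind that can bind transcripts of related genes; without such probe sets the change was -0.035 (adjusted p = 0.796).

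JAG2, the other Jagged ligand, had a single probe set, with 6.68, 6.85 and 6.72 in the PBS samples and 6.70, 6.91 and 6.42 in the EPC-Exos samples. The highest and the lowest value were both EPC-Exos arrays, and the change of -0.077 ± 0.11 was not called (adjusted p = 0.608). DLL4, the ligand of tip cells that is induced by VEGF, lay below the filter. Its log2 signals were 4.34, 4.37 and 4.30 with PBS and 4.14, 4.34 and 4.18 with EPC-Exos, under the highest Tag control of 4.97 on every array. Both DLL4 probe sets lay in that range and neither was called, so the transcript could not be told from background in either group, and a fold change has no use here.

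Among the target genes HES1 was called slightly lower, with probe sets that differed in sign, and HEY1 and HEY2 could not be read. HES1 encodes a repressor that Notch induces in many tissues and that switches off its own promoter. Its log2 signal was 7.50, 7.55 and 7.55 with PBS and 7.21, 7.38 and 7.32 with EPC-Exos. The groups did not overlap, and the mean went from 7.53 ± 0.031 to 7.30 ± 0.084 (SD, n = 3). The change was -0.23 ± 0.080, or 1.17-fold lower, with an adjusted p of 0.0259 in limma. The call was lost when any of PBS replicates 2 and 3 and EPC-Exos replicates 1 and 3 was left out (adjusted p = 0.0636, 0.0652, 0.115 and 0.0577), with values between -0.27 and -0.18 over the 6 arrays left out in turn. A further HES1 probe set had 6.84, 6.84 and 6.79 with PBS and 6.63, 6.44 and 6.53 with EPC-Exos. It too had no overlap between the groups, and its change of -0.29 ± 0.096 was called in the fit over all probe sets (adjusted p = 0.0301). This probe set is of the kind that can bind transcripts of related genes. In the same limma fit the probe set that represents HES1 was not called (adjusted p = 0.0519). The remaining 3 HES1 probe sets changed by 0.042 to 0.10 and were not called. Of the 5 HES1 probe sets 4 lay above the signal filter. With all 5 averaged the change was -0.064 (adjusted p = 0.496).

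HEY1 and HEY2 encode repressors that act in arterial endothelium. HEY1 had 4.25, 4.22 and 4.01 with PBS and 4.02, 4.10 and 4.02 with EPC-Exos, on the log2 scale. HEY2 had 4.02, 4.18 and 3.79 with PBS and 4.07, 3.89 and 3.89 with EPC-Exos. All of these values lay under the highest Tag control, and the groups overlapped in both genes. In the fit without the signal filter, where 32.3% of 18132 genes were called, DLL4, HEY1 and HEY2 were not called, and no fold change is given for them.

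**Figure D3:**
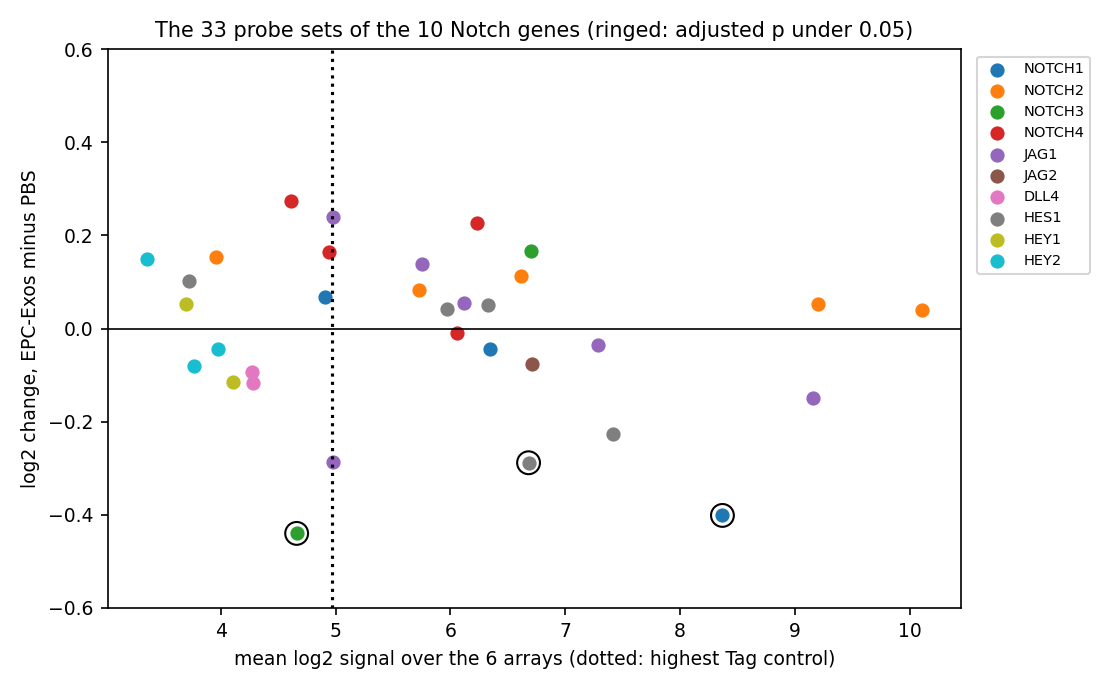
Each of the 33 probe sets of the 10 Notch genes, by its mean log2 signal over the 6 arrays (horizontal axis) and its change in log2 signal from PBS to EPC-Exos (vertical axis); colours mark genes, the dotted line marks the highest Tag control at 4.97, and rings mark an adjusted p under 0.05. The 3 ringed probe sets, of NOTCH1, NOTCH3 and HES1, all lie below 0, and 13 of the 33 lie at or left of the dotted line.

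Seen by probe set, 20 of the 33 had a mean above the highest Tag control. In the fit over all probe sets 3 of the 33 (9.09%) were called, against 28.4% of all probe sets, and these 3, of NOTCH1, NOTCH3 and HES1, were lower, as were 14.8% of all. The groups did not overlap in 6 of the 33, against 39.1% of all. Changes ranged from -0.44 to 0.27. Probe sets of a gene share its RNA and are not replicates. The sign of the change differed between probe sets within NOTCH1, NOTCH3, NOTCH4, JAG1, HES1, HEY1 and HEY2.

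Larger changes were seen in some further genes of the pathway. Of 64 further pathway genes, listed by role, 50 were tested, and 19 fell, 7 rose and 24 were not called. That is 52.0% called, beside the 49.1% over all genes, and a median change of -0.025 beside -0.011. Of the 50, 9 were called with at least a 1.5-fold change, beside 1159 of the 11715 genes tested. The median absolute change of the 50 was 0.18, beside 0.18 over all genes tested. The other 14 were not tested, 10 because they lay below the signal filter, where 0 were called in the fit without it, and 4 because they had no probe set with a single symbol.

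Of 8 tested genes for receptor cleavage 4 fell, 0 rose and 4 were not called. APH1B, a subunit of gamma-secretase, fell most, from 8.45, 8.53 and 8.34 with PBS to 7.75, 7.82 and 7.84 with EPC-Exos, with no overlap between the groups. Its change was -0.63 ± 0.075 (adjusted p = 2.58e-06). Named after their values were seen, the gamma-secretase subunits NCSTN and APH1A changed by -0.30 ± 0.068 and -0.17 ± 0.049 and the metalloprotease gene ADAM17 by -0.22 ± 0.062, all called. The APH1A call was lost without EPC-Exos replicate 2 (adjusted p = 0.0561) and without probe sets of the kind that can bind related transcripts, to which its own belongs (-0.14, adjusted p = 0.0755).

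Of 16 tested genes for modification and traffic of receptors and ligands 6 fell, 3 rose and 7 were not called. NEURL1B, a ubiquitin ligase that drives ligand uptake, fell from 8.62, 8.85 and 8.80 to 7.65, 7.86 and 7.68, a change of -1.03 ± 0.083 or 2.04-fold (adjusted p = 2.9e-08). DTX3L, a ubiquitin ligase of the Deltex family that is also known as an interferon-induced gene, rose from 8.58, 8.60 and 8.65 to 9.65, 9.49 and 9.60, a change of 0.97 ± 0.064 (adjusted p = 3.01e-09). NUMBL, an adaptor related to the Notch antagonist Numb, rose by 0.60 ± 0.064 (adjusted p = 7.89e-07), with 8.77, 8.83 and 8.69 on PBS arrays and 9.41, 9.31 and 9.39 on EPC-Exos arrays. In all of these genes the groups stood clear of each other. The probe sets that represent NEURL1B, its only one, and DTX3L are of the kind that can bind related transcripts. Without such probe sets neither gene was tested. LFNG, a fringe glycosyltransferase that tunes which ligands a receptor answers to, fell by 0.41 ± 0.095 on the log2 scale (adjusted p = 0.00168) and was named after its values were seen.

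Of 14 tested nuclear factors 7 fell, 2 rose and 5 were not called. KAT2B, a histone acetyltransferase recruited as a coactivator, fell from 8.87, 8.73 and 8.83 to 7.73, 7.72 and 7.71, a change of -1.09 ± 0.070 or 2.12-fold (adjusted p = 2.18e-09). MAML3, a Mastermind coactivator, changed by -0.71 ± 0.10 (adjusted p = 2.31e-05). The Groucho-type corepressors, which HES proteins recruit, split: TLE4 fell by 0.62 ± 0.070 on the log2 scale and TLE1 rose by 0.61 ± 0.091 (adjusted p = 1.53e-06 and 2.98e-05). Without a PBS array another probe set came to represent TLE4, and its change was then between -0.42 and -0.35, still called. RBPJ itself, the DNA-binding partner of all 4 receptors and named after its values were seen, had 10.53, 10.46 and 10.57 with PBS and 10.57, 10.45 and 10.53 with EPC-Exos. Its groups overlapped fully, and the 95% interval of its change, -0.0062 ± 0.052, ran from -0.12 to 0.10.

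**Figure D4:**
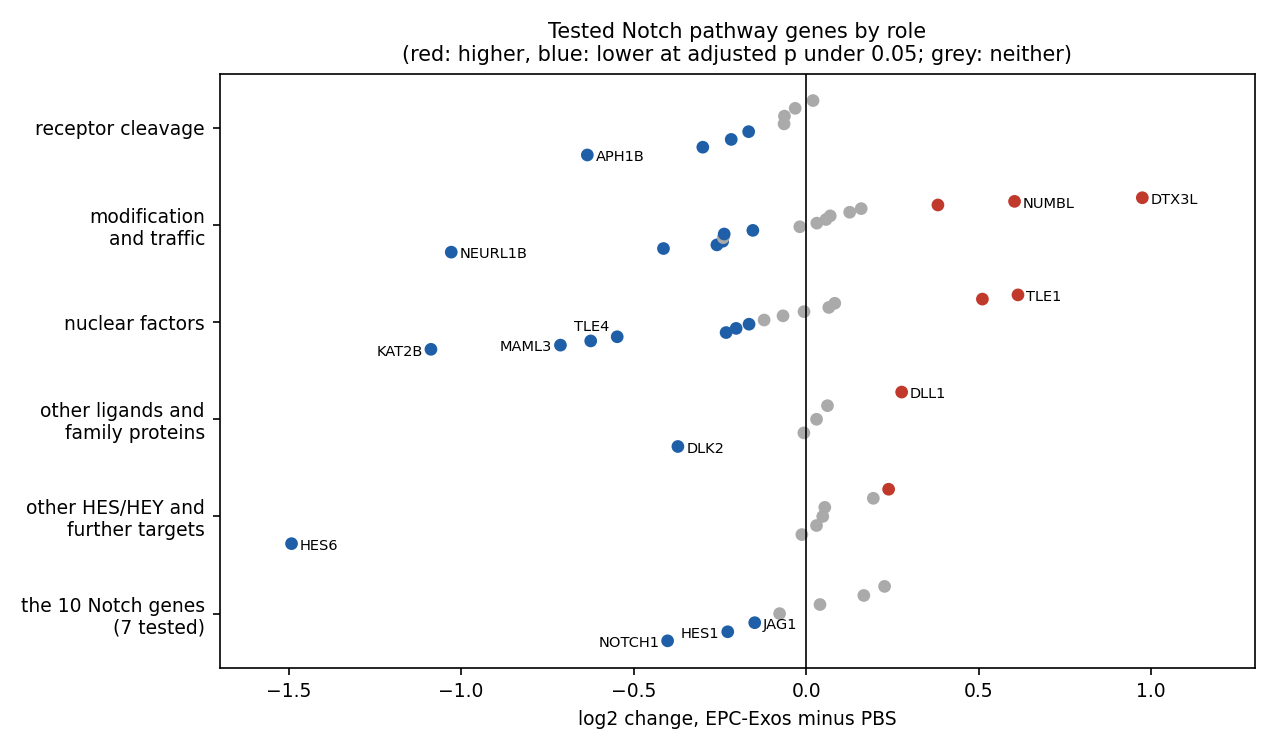
Change in log2 signal from PBS to EPC-Exos (horizontal axis) for the 50 tested further pathway genes by role (rows) and, in the bottom row, the 7 tested Notch genes; each point is a gene, red called higher, blue called lower and grey not called. HES6 at -1.49 and DTX3L at 0.97 mark the ends of the range, and the Notch genes lie between -0.40 and 0.23.

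Of 5 tested other ligands and family proteins 1 fell, 1 rose and 3 were not called. DLK2, a non-canonical Delta-like protein, changed by -0.37 ± 0.084 (adjusted p = 0.00143). DLL1, a Delta-like ligand, changed by 0.28 ± 0.10 (adjusted p = 0.0355), but the call was lost when either of PBS replicates 1 and 2 or of EPC-Exos replicates 1 and 2 was left out (adjusted p = 0.0699, 0.152, 0.0770 and 0.109) or no signal filter was set (adjusted p = 0.0530), and its probe sets above the filter differed in sign.

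Of 7 tested further HES and HEY genes and targets 1 fell, 1 rose and 5 were not called. HES6, a family member known to oppose HES1, had the largest change of all the pathway genes tested, from 8.24, 8.46 and 8.31 with PBS to 6.76, 6.88 and 6.88 with EPC-Exos. The change was -1.49 ± 0.083, or 2.81-fold lower (adjusted p = 3.53e-10), and it had a single probe set. EFNB2, the arterial ephrin, rose by 0.24 ± 0.055 (adjusted p = 0.00157). The target genes NRARP and HEYL changed by 0.054 ± 0.086 and 0.048 ± 0.089 and were not called (adjusted p = 0.638 and 0.687). EFNB2, NRARP and HEYL were named after their values were seen.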

How the data were processed

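RNA of 6 samples of HMEC-1 was hybridised to Affymetrix 3′ expression arrays, 3 samples per group. Groups and replicate numbers came from the sample titles. The authors deposited 1 log2 signal per probe set and array. The submitters' processing notes name MAS5 with no role. How background was corrected and arrays were scaled is not given in the sources used here. The log2 scale was read from the range of the values, 2.47 to 14.52, and the deposited scaling was kept. Depth on arrays is limited by their number.

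A gene was represented by the single-symbol probe set with the highest mean over the 6 arrays, and tested where that mean was at least 5.45, the 40th percentile over the non-control probe sets. The test was limma's moderated comparison (version 3.58.1, R 4.3.3; lmFit and eBayes with a variance trend), two-sided, over all 11715 genes, with Benjamini-Hochberg adjustment and calls at an adjusted p under 0.05. The same fit was run over all 49293 non-control probe sets without a filter. Changes are EPC-Exos minus PBS. The fit was also run on simulated data with independent noise and few changed genes. Far more genes were called on these arrays, so that run does not give the error rate here. The labels give no batch, and batch and treatment cannot be told apart if a batch held a single group.

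The members and gene lists were chosen with earlier results of these data known. Every member is named. Further pathway genes are named where called at a fold of at least 1.5, or else as the 2 largest of a list, and any other is marked as named after its values were seen. Alternatives covered scaling, offset, filter, probe set choice, variance trend, a replicate block and each array left out.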

Additional observations from a re-analysis of the deposited data

Results flagged for a closer look

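Probe sets annotated to NOTCH2 together with other genes stood outside the comparison, and 2 of the 4 were called higher in the fit over all probe sets, where 28.4% were called in either direction. These 2 were annotated to the same 6 genes, which include NOTCH2, NOTCH2NL copies and NBPF genes. On the PBS arrays the brighter had 9.86, 9.99 and 10.10 on the log2 scale, and on the EPC-Exos arrays 10.11, 10.29 and 10.14. Its change was 0.20 ± 0.066 (adjusted p = 0.0309 in limma over all probe sets). The other had 9.67, 9.76 and 9.91 with PBS and 10.01, 10.18 and 9.98 with EPC-Exos, a change of 0.28 ± 0.068 (adjusted p = 0.00432). In both, all EPC-Exos arrays lay above all PBS arrays, and the groups did not overlap, in either direction, in 39.1% of all probe sets. Of the remaining 2, annotated to 4 genes each, the brighter had means of 6.89 and 6.87 and changed by -0.016 ± 0.091, and the dimmer lay below the highest Tag control in both groups; neither was called. The 5 probe sets of NOTCH2 alone changed by 0.040 to 0.15 and were not called, and whether these differ from the 2 called was not tested. Which of the 6 genes gives this signal cannot be told from the array.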

How the results depend on the processing

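Of the 7 tested members NOTCH1 kept its call in 14 of 15 alternatives, HES1 in 10 and JAG1 in 5. The 14 that kept NOTCH1 all used its brightest probe set, so they could not test the disagreement between its probe sets. When the signals of all of a gene's probe sets were averaged, 0 of the 7 were called, against 3; an average includes probe sets at background. Leaving out each array in turn left 1 to 2 members called, and the median over all genes moved by less than 0.1 under each scaling. Signs turned in members and pathway genes that were not called. NOTCH3 turned to -0.14 with averaged probe sets and JAG2 ranged from -0.19 without EPC-Exos replicate 2 to 0.052 without replicate 3. RBPJ turned to 0.018 with median centring, 0.073 with averaged probe sets and 0.13 without _x_at and _s_at probe sets, and leaving out each array in turn gave it values from -0.036 to 0.027; the cause was not tested. Averaging probe sets shrank the changes of APH1B to -0.41, NUMBL to 0.33, KAT2B to -0.75 and TLE4 to -0.42, all still called. It raised those of DTX3L to 1.13 and EFNB2 to 0.32, and it left MAML3 untested. The calls of DLL1 (0.043) and ADAM17 (-0.18) ended. The 26 further pathway genes called became 21 to 27 over all alternatives. With the replicate number as a block, 3 members, 27 further pathway genes and 6118 of all genes were called, and no member's call changed. Same-numbered arrays had deviations that correlated at 0.20, 0.18 and 0.077, and arrays of different numbers at -0.19 to 0.022. Each of the 6 samples was closest to its own number. The main fit did not pair the samples, and whether same-numbered samples shared a batch or culture was not tested. Signals near the Tag controls limit what can be said of DLL4, HEY1 and HEY2.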
